A study of Mus musculus with 15 samples.

Results

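The genes examined were the amyloid precursor protein family (App, Aplp1 and Aplp2) and the genes of the enzymes that cut it (Bace1, Psen2, Ncstn, Aph1a, Psenen and Adam10). They were chosen by symbol, and all 9 of 9 were found among the 55401 genes of the count tables and passed the filter on low counts, which left 19536 genes. Hippocampal RNA of 15 female mice, 18 to 20 months old, was sequenced. Tg2576 mice, labelled Tg2576 +/+, overexpress human APP with the Swedish mutation from a prion promoter and were compared with negative littermates (WT, labelled Tg2576 -/-). Mice received docosahexaenoic acid (DHA), an omega-3 fatty acid, at 450 mg/kg daily by the intragastric route or sesame oil as vehicle, in both cases for 5 weeks. Each mouse gave 1 library, with 4 WT mice on either treatment, 4 Tg2576 mice on vehicle and 3 Tg2576 mice on DHA.

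The amyloid precursor protein is a membrane protein that is abundant in neurons. α-Secretase, mainly ADAM10, cuts it within the amyloid-β stretch, whereas β-secretase, BACE1, makes the first of the cuts that release amyloid-β. γ-Secretase, a membrane complex of a presenilin with nicastrin, APH1 and PEN2 (genes Psen2, Ncstn, Aph1a and Psenen among those examined), then cuts the remaining stub.

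In Tg2576 mice, reads counted on App may come from the endogenous gene, under its own promoter, or from the transgene, under a prion promoter. The mouse promoters of App and of the prion gene Prnp are shown for this reason, taken from RefSeq (GRCm38.p6) up to the first annotated exon base, 5′ to 3′ on the gene's strand, with GC boxes (GGGCGG on either strand) in capitals. The App stretch is chr16:85173767-85173957 on the minus strand and the Prnp stretch is chr2:131909678-131909927 on the plus strand.
App: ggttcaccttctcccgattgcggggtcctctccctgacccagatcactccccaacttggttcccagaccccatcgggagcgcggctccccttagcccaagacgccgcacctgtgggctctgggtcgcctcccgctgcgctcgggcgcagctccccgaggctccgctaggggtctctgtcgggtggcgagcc
Prnp: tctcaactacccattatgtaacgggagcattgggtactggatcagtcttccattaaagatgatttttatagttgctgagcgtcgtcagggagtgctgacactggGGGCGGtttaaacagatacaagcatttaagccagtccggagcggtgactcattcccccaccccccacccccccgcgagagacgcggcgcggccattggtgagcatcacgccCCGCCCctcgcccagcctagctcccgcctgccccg
The App stretch of 191 bases was 69.6% G or C, against a median of 51.3% over 32851 promoter windows of that length, and held neither a GC box nor the letters TATAAA on either strand. GC boxes were present in 23.1% of those windows and TATAAA in 8.78%. The Prnp stretch of 250 bases held 2 GC boxes and TATAAA 1 time, the latter on the strand opposite to the one shown, with no overlap between them. Of windows of 250 bases, 32.7% and 12.4% held these letters on either strand. The promoter of the transgene itself was not analysed here.

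Because the 3 family genes are related in sequence, the longest run of identical bases between the coding sequences of their principal transcripts was searched for (GENCODE M21, GRCm38). These runs show how far a read can be assigned to 1 family gene.
App and Aplp2: ctatggcatgctgctgccctgcgg
App and Aplp1: gaagaggaggaag
Aplp1 and Aplp2: gaggatgaagagga
The App and Aplp2 run was 24 bases long, within 1 coding exon of each gene, at chr16:85079978-85080001 and chr9:31170578-31170601, both on the minus strand. The run of App and Aplp1 was 13 bases long (chr16:85056489-85056501 and chr7:30442218-30442230), and that of Aplp1 and Aplp2 was 14 (chr7:30442298-30442311 and chr9:31170467-31170480). No window of 50 bases of the principal transcripts of Aplp1, Aplp2, Psen2 or Adam10 was found in a transcript of another annotated gene on either strand. The share of such windows was 2.11% for App, 5.15% for Ncstn, 30.7% for Bace1, 39% for Psenen and 47.9% for Aph1a. The gene sharing most of them was Gm12396 for Psenen (39% of windows), Gm15429 for Aph1a (24.9%) and Rnf214 for Bace1 (15.4%). A read that lies within a shared stretch cannot be assigned to 1 gene by its sequence, so the levels of these genes are uncertain. How much of the mouse App count in Tg2576 mice is transgene RNA could not be read from these tables.

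Libraries held 17372864 to 46596489 counts (median 25645977), and the lowest count of any of the 9 genes in any mouse was 306 (Aph1a). Levels are given as CPM, read counts scaled to library size with TMM factors, in order of replicate number. Differences were tested with edgeR's quasi-likelihood test over all 19536 genes, and a gene was called at an unadjusted p under 0.01, the study's own threshold. Benjamini-Hochberg adjusted p-values are given beside it. Markers of the dentate gyrus, CA1 and CA3 were detected in every mouse, at a sum of 497 to 755 CPM. Markers of neurons summed to between 4670 and 5350 CPM in every mouse, whereas markers of the choroid plexus ranged from 60.2 to 5800 CPM and reached at least 3080 CPM in each of the 3 Tg2576 DHA mice.

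App RNA was higher in every Tg2576 mouse than in any WT mouse. It was at 1651, 1787, 1763 and 1608 CPM in the WT vehicle mice and at 1572, 1652, 1724 and 1615 CPM in the WT DHA mice. It was at 2615, 2365, 2313 and 2076 CPM in the Tg2576 vehicle mice and at 2286, 2553 and 2787 CPM in the Tg2576 DHA mice. The highest WT value, 1787, thus lay under the lowest Tg2576 value, 2076. Over both treatments App was 46% higher in Tg2576 mice, a log2 fold change of 0.55 (SE 0.0623, 95% interval 0.415 to 0.677), with an adjusted p of 0.00171 in edgeR. No other of the 19536 genes had a lower p. App was the only 1 of the 9 genes called in this comparison, where 3.85% of all genes were called, and 0.205% passed an adjusted p of 0.05. Groups of 7 Tg2576 and 8 WT mice that did not overlap were seen for 72 genes, 0.369% of those tested, and App was the only member among them.

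**Figure D1:**
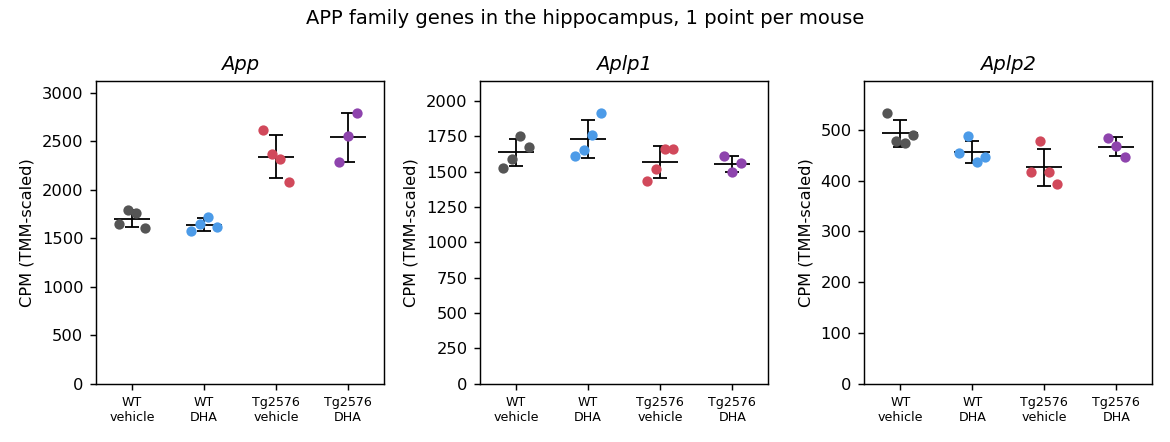
Levels of App, Aplp1 and Aplp2 in CPM (vertical axes, from 0) in the 4 groups, with 1 point per mouse, the group mean as a long bar and the SD as whiskers. App sits between 1572 and 1787 CPM in WT mice and between 2076 and 2787 CPM in Tg2576 mice, whereas Aplp1 and Aplp2 overlap between the genotypes when all mice are taken.

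Within each treatment App was called as well. Under vehicle its log2 fold change between the genotypes was 0.46 (SE 0.085), with an adjusted p of 0.0766 in edgeR and rank 11 by p among all genes. App was the only 1 of the 9 genes called under vehicle, where 3.09% of all genes were called and 0.0154% passed the adjusted threshold. Under DHA the log2 fold change was 0.63 (SE 0.091), and App was the single gene, 0.00512% of those tested, with an adjusted p under 0.05 (0.0416 in edgeR). The unadjusted threshold was met by 1.75% of genes under DHA, App alone among the 9. That adjusted threshold was passed in 10 of 25 alternative fits under DHA and in 24 of 24 over both treatments. With the summed choroid plexus markers as a covariate the DHA difference was 0.58 and its adjusted p 0.377, while the difference over both treatments was 0.52 with an adjusted p of 0.0119. Summed astrocyte markers were at 1290 to 1570 CPM in WT and 1620 to 2590 CPM in Tg2576 mice. Of the 5 astrocyte markers only Gfap was called (log2 fold change 1.01 over both treatments), and the other 4 lay between -0.03 and 0.10. Of 5 microglia markers Csf1r and Cx3cr1 were called higher over both treatments, where 3.85% of all genes were called. Under vehicle none of them was called, and under DHA Csf1r, Cx3cr1 and P2ry12 were, all higher. Summed microglia markers were at 186 to 236 CPM in WT and 183 to 297 CPM in Tg2576 mice. Of 5 plaque-associated microglia markers, Cst7, Itgax and Clec7a were called higher in Tg2576 mice over both treatments, and Axl and Gpnmb were not called. These 5 summed to 54.1 to 69.8 CPM in WT and 63.9 to 89.3 CPM in Tg2576 mice, overlapping ranges. Axl made up most of this sum, at group means of 51 to 54.4 CPM. Cst7 was at no more than 2.29 CPM in any WT mouse and at least 3.58 CPM in every Tg2576 mouse. Each of the others overlapped between the genotypes. Itgax and Clec7a were low, at no more than 7.56 CPM in any mouse. Over both treatments Rbfox3 (-0.17) of 5 neuronal and Prox1 (-0.27) and Wfs1 (-0.27) of 6 hippocampal markers were called lower. The part of these cells in the App difference was not tested. In bulk tissue, fewer cells of a type and less RNA per cell cannot be told apart.

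Prnp, the mouse gene whose promoter type drives the transgene, was at 887 to 1020 CPM in WT and 967 to 1090 CPM in Tg2576 mice. These ranges overlapped, and its log2 difference over both treatments was 0.07 (95% interval -0.0473 to 0.179, adjusted p 0.706 in edgeR).

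Aplp1, a family member expressed mainly in neurons, was at 1528, 1593, 1752 and 1672 CPM in WT vehicle and at 1434, 1518, 1664 and 1660 CPM in Tg2576 vehicle mice. It was at 1614, 1651, 1757 and 1912 CPM in WT DHA and at 1608, 1499 and 1561 CPM in Tg2576 DHA mice. The vehicle groups overlapped, whereas under DHA every Tg2576 mouse lay under every WT mouse, the nearest pair being 1608 and 1614 CPM. The log2 difference between the genotypes was -0.06 under vehicle (95% interval -0.229 to 0.108) and -0.16 under DHA (-0.339 to 0.0266, adjusted p 0.78 in edgeR), and neither was called. Under DHA the exact permutation test of the log2 levels gave p = 0.0571 (two-sided), the smallest value that 4 against 3 mice allow. This value follows from the lack of overlap, was the same for App, and adds nothing to it. Under DHA, groups that did not overlap were seen for 8.57% of all genes, App and Aplp1 among the 9. Under vehicle they were seen for 5.16%, App and Bace1 among the 9.

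Aplp2, a family member expressed in most tissues, was at 532, 477, 474 and 490 CPM in WT vehicle and at 417, 478, 416 and 393 CPM in Tg2576 vehicle mice. Of the Tg2576 vehicle mice, 3 lay under the whole WT vehicle range and 1 lay within it. The log2 difference was -0.21 (95% interval -0.372 to -0.0501), which missed the threshold in edgeR (unadjusted p 0.0132, adjusted p 0.345). It passed in DESeq2 (unadjusted p 0.00715), in limma-voom (0.00962) and, in edgeR, without Tg2576 vehicle replicate 2 (-0.27, 0.00231). These were 3 of 25 alternative fits, and the others missed the threshold (unadjusted p up to 0.0674). Under DHA Aplp2 was at 455, 487, 436 and 446 CPM in WT and at 485, 468 and 447 CPM in Tg2576 mice, overlapping groups with a log2 difference of 0.03 (-0.14 to 0.207).

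Bace1, the β-secretase gene, was at 94.5, 108, 87.5 and 91.5 CPM in WT vehicle and at 87, 86.3, 73.4 and 67.3 CPM in Tg2576 vehicle mice. Every Tg2576 vehicle mouse lay under every WT vehicle mouse, the nearest pair being 87 and 87.5 CPM. The exact permutation test gave p = 0.0286 (two-sided), the smallest value that 4 against 4 mice allow. Any gene whose vehicle groups do not overlap has this value, App included, so it is no further evidence. In edgeR the log2 difference was -0.28 (SE 0.102, 95% interval -0.496 to -0.0659), with an unadjusted p of 0.0134 and an adjusted p of 0.345, so Bace1 was not called. Under DHA Bace1 was at 86.5, 97.3, 85.7 and 89.3 CPM in WT and at 77.7, 99.4 and 89.3 CPM in Tg2576 mice. These groups overlapped, with a log2 difference of -0.01 (-0.247 to 0.218). With the replicate block, a fit that takes the replicate number as a further term, the vehicle difference of Bace1 was -0.28 with an unadjusted p of 0.00572, which is past the threshold. It also passed with no filter on low counts (unadjusted p 0.00817) and without Tg2576 vehicle replicate 1 (0.00639), Tg2576 vehicle replicate 2 (0.00818) or WT vehicle replicate 3 (0.00998). These were 5 of 25 alternative fits. The vehicle difference of Bace1 missed the threshold in the others, DESeq2 and limma-voom among them (unadjusted p up to 0.0718). Its adjusted p was at least 0.177 in every alternative fit.

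Adam10, the α-secretase gene, was at 78.4, 78.2, 59 and 67 CPM in WT vehicle and at 53.3, 71.1, 55.4 and 46.2 CPM in Tg2576 vehicle mice. Of the Tg2576 vehicle mice, 3 lay under the whole WT vehicle range, and replicate 2, at 71.1 CPM, lay within it. The log2 difference under vehicle was -0.32 (95% interval -0.592 to -0.0508, unadjusted p 0.0226, adjusted p 0.382 in edgeR). Under DHA Adam10 was at 60.5, 67.3, 63.6 and 50.5 CPM in WT and at 61.7, 70.4 and 72.1 CPM in Tg2576 mice, a log2 difference of 0.17 (-0.121 to 0.461). The genotype differences under the 2 treatments thus had opposite signs, and the test of their difference (the interaction) gave 0.49 on the log2 scale (0.0941 to 0.889) with an unadjusted p of 0.0183 and an adjusted p of 0.845. Adam10 was therefore not called in the interaction, nor was any of the other 8 genes (Aplp2 had an unadjusted p of 0.0436), where 0.829% of all genes were called. DESeq2 and limma-voom called 0 of the 9 there. The call of Adam10 depended on the fit and on single mice. It passed in 4 of 25 alternative fits under vehicle (unadjusted p up to 0.106) and in 3 of 24 for the interaction (up to 0.0478). The adjusted p was at least 0.169 and 0.366 in these fits. The replicate block gave -0.34 under vehicle (unadjusted p 0.00574), and with no filter on low counts the vehicle difference was -0.33 (0.00926) and the interaction 0.50 (0.00694), all past the threshold. Without Tg2576 vehicle replicate 2 the vehicle difference of Adam10 was -0.45 (unadjusted p 0.00179) and the interaction 0.62 (0.00205), and without WT vehicle replicate 3 they were -0.40 (0.00795) and 0.57 (0.00755).

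**Figure D2:**
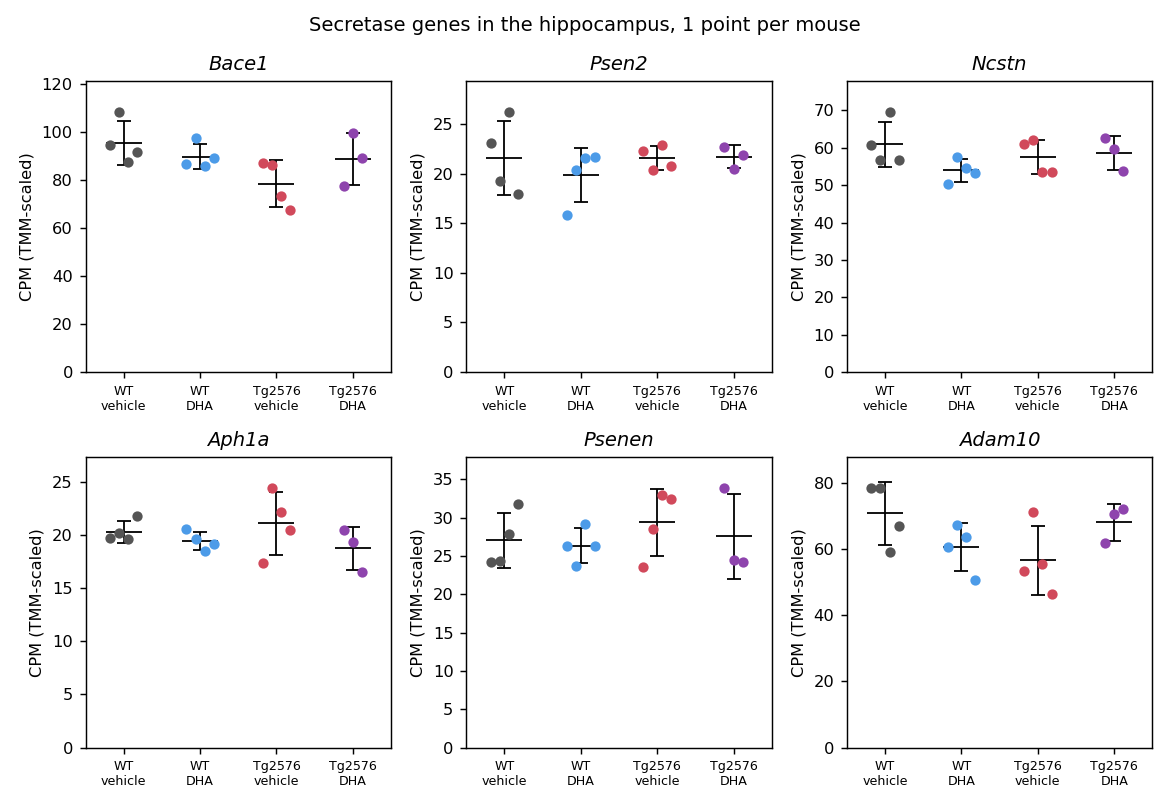
Levels of the 6 secretase genes in CPM (vertical axes, from 0) in the 4 groups, with 1 point per mouse, the group mean as a long bar and the SD as whiskers. Bace1 ranges from 87.5 to 108 CPM in WT vehicle and from 67.3 to 87 CPM in Tg2576 vehicle mice, and for the other 5 genes these groups overlap.

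None of the 4 γ-secretase genes was called in any of the 7 comparisons in edgeR, none had an unadjusted p under 0.05, and none was called by DESeq2 or limma-voom. Psen2, a gene of the catalytic presenilin subunit, was at 23.1, 19.3, 26.2 and 17.9 CPM in WT vehicle and at 22.3, 20.4, 22.9 and 20.8 CPM in Tg2576 vehicle mice. Its WT vehicle range enclosed the Tg2576 vehicle range, and the log2 difference of 0.00 had a 95% interval of -0.266 to 0.259. Psen2 was at 15.9, 20.4, 21.6 and 21.7 CPM in WT DHA and at 22.7, 20.5 and 22 CPM in Tg2576 DHA mice. These groups overlapped as well, with a log2 difference of 0.13 (-0.156 to 0.412).

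Ncstn encodes nicastrin, which binds the substrate. Ncstn was at 60.7, 56.9, 69.5 and 56.8 CPM in WT vehicle and at 60.9, 62.2, 53.6 and 53.5 CPM in Tg2576 vehicle mice, and at 50.4, 57.7, 54.7 and 53.2 CPM in WT DHA and 62.6, 59.7 and 53.7 CPM in Tg2576 DHA mice. The genotypes overlapped under both treatments, with log2 differences of -0.08 (95% interval -0.271 to 0.104) and 0.12 (-0.0828 to 0.322). Aph1a, a scaffold subunit, ranged from 16.5 to 24.4 CPM over the 15 mice. Its log2 differences between the genotypes were 0.06 (-0.168 to 0.286) under vehicle and -0.05 (-0.3 to 0.192) under DHA. Psenen, the gene of the smallest subunit, ranged from 23.6 to 33.9 CPM, and its differences were 0.12 (-0.161 to 0.401) and 0.07 (-0.238 to 0.369).

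Between DHA and vehicle, edgeR, DESeq2 and limma-voom called 0 of the 9 genes, and none had an unadjusted p under 0.05 in edgeR. In WT mice 1.38% of all genes were called, in Tg2576 mice 0.353%, and over both genotypes 0.87%. For App the log2 difference of DHA from vehicle was -0.05 in WT (95% interval -0.232 to 0.125) and 0.12 in Tg2576 mice (-0.0745 to 0.311). In Tg2576 mice the interval corresponds to 0.95-fold to 1.24-fold. The lowest unadjusted p of the 9 genes was that of Ncstn in WT mice (log2 difference -0.18, -0.363 to 0.0125, unadjusted p 0.0655) and that of Adam10 in Tg2576 mice (0.27, -0.0233 to 0.559, unadjusted p 0.0691). No gene of the 9 had groups without overlap between DHA and vehicle, where 5.02% of all genes did in WT and 3.21% in Tg2576 mice. The intervals of the 9 genes reached at most -0.494 and 0.559 on the log2 scale, so a larger effect of DHA lay outside them.

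**Figure D3:**
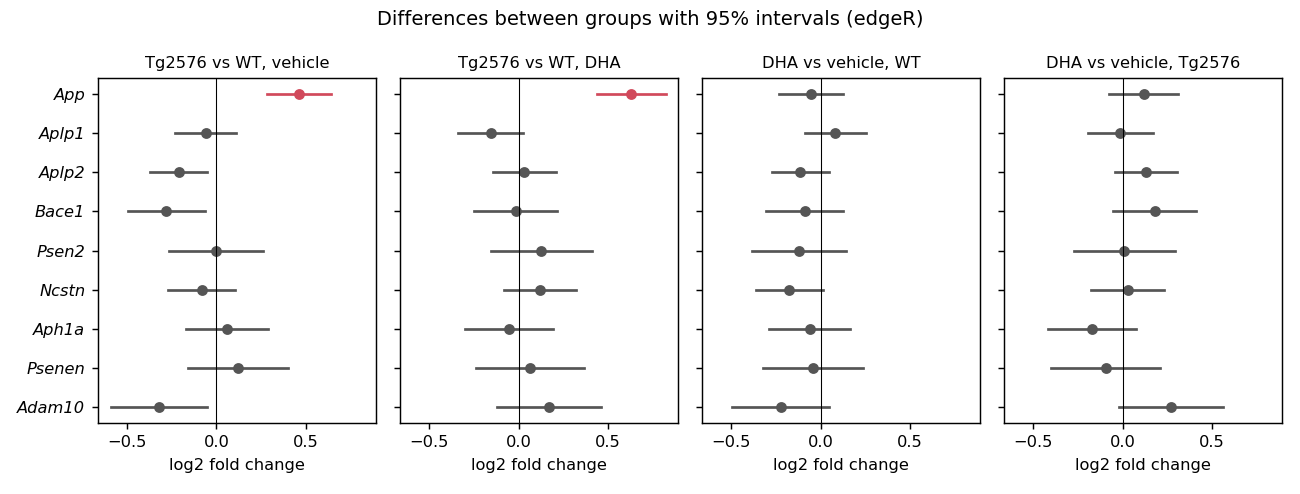
Log2 fold changes of the 9 genes (points) with their 95% intervals (lines) in 4 comparisons from edgeR, with those past an unadjusted p of 0.01 in red. App alone is red, at 0.46 under vehicle and 0.63 under DHA, and no gene is red in the comparisons of DHA with vehicle.

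Levels were set against each other between genes only per kilobase of exon. With the length column of the count files, which covers every annotated exon, Aplp1 was the highest of the 9 in each group, at 542 ± 32.3 CPM per kilobase (SD, n = 4) in WT vehicle mice. App followed at 131 ± 6.66, Aplp2 at 83.9 ± 4.55 and Psenen at 21.2 ± 2.81 (SD, n = 4), and these first 4 kept their order without overlap of neighbours in each group. Ncstn, Bace1 and Adam10 came next, at 14.4 to 15.3 CPM per kilobase on average in WT vehicle mice, and were not separated from each other by their spread. Aph1a (5.88 ± 0.297) and Psen2 (4.99 ± 0.866) were the lowest (SD, n = 4).

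The order of App and Aplp1 depended on the length used. The files give App 12996 bases of exon, whereas its principal transcript, 1 of 11 in GENCODE M21, has 3176 bases. With principal transcripts, App was at 536 ± 27.2 CPM per kilobase and Aplp1 at 698 ± 41.5 (SD, n = 4) in WT vehicle mice, and the groups of values did not overlap. In Tg2576 DHA mice the order was turned, with App at 800 ± 79 and Aplp1 at 664 ± 23.3 (SD, n = 3), again without overlap. In Tg2576 vehicle mice App (738 ± 69.6) and Aplp1 (670 ± 48.2, SD, n = 4) overlapped. On this scale App made up 39.1% ± 1.49 of the summed level of the 3 family genes in WT vehicle and 48.3% ± 3.66 in Tg2576 vehicle mice (SD, n = 4). With the length column these shares were 17.3% ± 0.909 and 23.4% ± 2.7. App counts of Tg2576 mice may include transgene reads, for which the length of the mouse transcript may not hold. The order of App and Aplp1 and the App share in Tg2576 mice are therefore uncertain. Aph1a and Psen2 exchanged places at the low end, with Aph1a at 7.09 and Psen2 at 10.7 CPM per kilobase in WT vehicle mice. With principal transcripts Ncstn lay above Bace1 and Adam10 without overlap in each group. In WT vehicle mice they were at 21 ± 2.07, 15.7 ± 1.49 and 15.4 ± 2.05 CPM per kilobase (SD, n = 4).

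**Figure D4:**
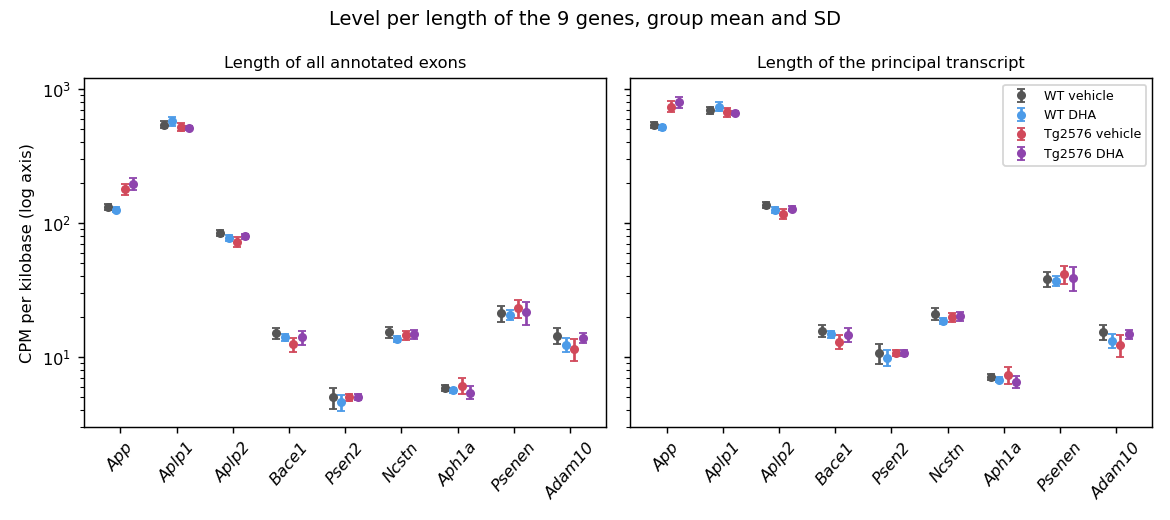
Group means (points) and SDs (whiskers) of the 9 genes in CPM per kilobase on a log axis, with the length of all annotated exons on the left and that of the principal transcript on the right. App lies under Aplp1 in every group on the left (131 against 542 in WT vehicle), and above it in both Tg2576 groups on the right (800 against 664 in Tg2576 DHA). App values of Tg2576 mice may include transgene reads.

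The biological coefficient of variation in edgeR was 8.93% (Aplp2) to 14% (Psenen), all under the median of 17.7% over all tested genes. The 8179 tested genes at least as abundant as the least abundant of the 9 had a median of 11.6%, which Aph1a (11.9%), Psen2 (13.4%), Adam10 (13.4%) and Psenen (14%) exceeded. The 5 genes nearest to App by the root mean square difference of centred log2 CPM over the 15 mice were Il10ra (0.14), Katnbl1 (0.152), Man2b1 (0.158), Akain1 (0.158) and Chac2 (0.16). The other 8 genes of the family and the secretases lay between 0.281 (Psen2) and 0.364 (Adam10) from App. This measure includes the genotype difference of App, so a gene without that difference lies farther away for that reason alone. The distances of all tested genes were not summarized.

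A further 44 genes of App processing, in 6 lists, were all tested. The lists were chosen with earlier results of these data known, so their share of calls may not be independent of these data. Under vehicle 3 of the 44 were lower in Tg2576 mice at an unadjusted p under 0.01 and none was higher, where 3.09% of all genes were called, 378 lower and 226 higher. The median of the 44 was -0.08 on the log2 scale beside 0.0003 over all genes. DESeq2 called the same 3, and limma-voom 4 with Notch1 added. Sorl1, a sorting receptor that binds APP, was at 525, 582, 418 and 417 CPM in WT vehicle and at 364, 360, 344 and 369 CPM in Tg2576 vehicle mice. All 4 Tg2576 vehicle mice lay under the WT vehicle range, and Sorl1 fell by 0.43 on the log2 scale (95% interval -0.678 to -0.19, adjusted p 0.198 in edgeR). The difference under DHA was -0.10 (-0.365 to 0.162), and the test of the difference between the treatments gave an unadjusted p of 0.0666.

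Sort1 encodes sortilin, another sorting receptor. Sort1 was at 856, 948, 692 and 831 CPM in WT vehicle and 743, 695, 657 and 607 CPM in Tg2576 vehicle mice, overlapping groups with a log2 difference of -0.30 (unadjusted p 0.00964, adjusted p 0.32 in edgeR). Apba2, an adaptor that binds the tail of APP, was at 247 to 263 CPM in WT vehicle and 213 to 226 CPM in Tg2576 vehicle mice. The ranges did not overlap, and Apba2 was called under vehicle (-0.22, adjusted p 0.244) and over both treatments (-0.20, adjusted p 0.0992, edgeR).

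Apba3, of the same adaptor group, was at 24.4, 24.7, 27.3 and 24.1 CPM in WT vehicle, 32.1, 30.7, 33.7 and 38.3 CPM in WT DHA, 27.6, 26.6, 27.3 and 32.8 CPM in Tg2576 vehicle and 26.4, 21.7 and 25.7 CPM in Tg2576 DHA mice. All 4 WT DHA mice lay above the WT vehicle and the Tg2576 DHA mice. Apba3 was called for DHA in WT mice (log2 difference 0.42), for the genotype under DHA (-0.46) and for the interaction (-0.64, 95% interval -0.953 to -0.33, unadjusted p 0.00043), but its adjusted p was 0.845 in the interaction (edgeR). These 3 comparisons share the WT DHA mice. It was the only 1 of the 44 called in each of them in edgeR, where 1.38%, 1.75% and 0.829% of all genes were called, while DESeq2 also called Sorl1 for DHA in WT and Apba2 and Ece1 for the genotype under DHA.

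Over both treatments 3 of the 44 were lower in Tg2576 mice, namely Apba2, Sorl1 (-0.27) and Ece1 (-0.18, unadjusted p 0.00924, adjusted p 0.255 in edgeR), which encodes an enzyme that can degrade amyloid-β. Of all genes 3.85% were called, 374 of them lower. DESeq2 called these 3 and Sort1, whereas limma-voom called Sort1 in place of Ece1. For DHA in Tg2576 mice and for DHA over both genotypes, edgeR called 0 of the 44, and 69 and 170 of all genes. DESeq2 and limma-voom called 0 of the 44 in these comparisons too, and edgeR gave an unadjusted p under 0.05 for 0 and 1 of them. In the 3 lists with no call in edgeR, the lowest p belonged to Aph1c, a paralogue of Aph1a (DHA in WT, -0.51, unadjusted p 0.0272), to Tmed10, a trafficking protein that modulates γ-secretase (genotype under DHA, 0.25, unadjusted p 0.026), and to Notch1, another γ-secretase substrate (genotype under vehicle, -0.46, unadjusted p 0.0197), which limma-voom called.

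**Figure D5:**
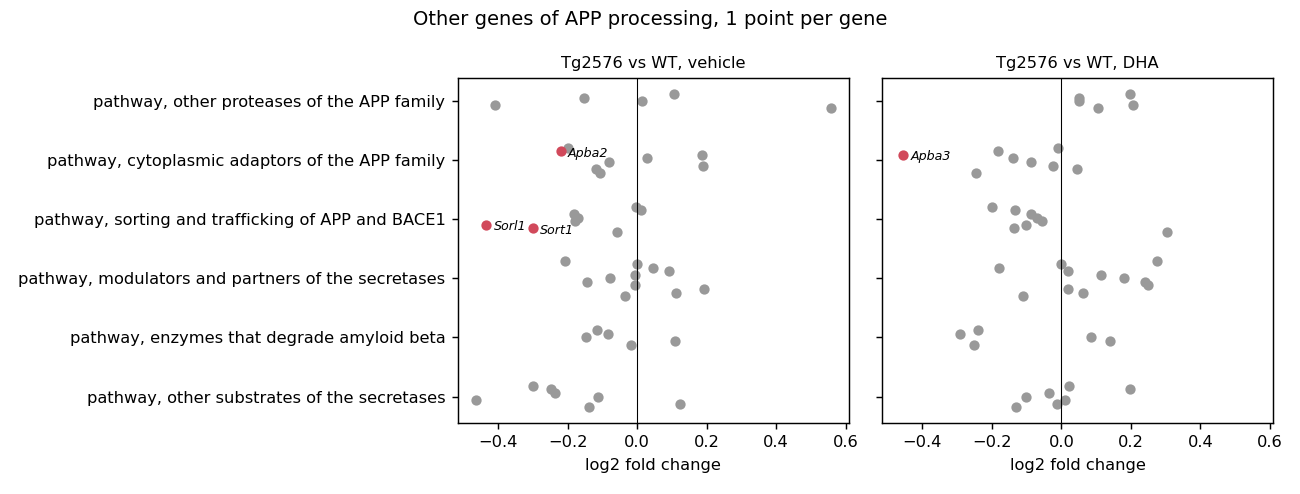
Log2 fold changes between Tg2576 and WT mice (horizontal axes) of the 44 other genes of App processing by list, under vehicle on the left and under DHA on the right, with 1 point per gene and those past an unadjusted p of 0.01 in red and named. The red points are Apba2, Sorl1 and Sort1 on the left, all lower in Tg2576 mice, and Apba3 (-0.46) on the right.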

How the data were processed

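The deposited tables hold whole-number read counts per gene, 1 file per mouse, with no normalization. Per the file headers and the submitters' processing notes, the authors aligned reads with STAR 2.6.1c to GRCm38 and counted exon reads per gene with featureCounts 1.6.0 on GENCODE M25, with no strand option, so reads from a gene and an antisense partner cannot be told apart. Read length was not given in the sources used here. The labels and the published methods name different library kits. Groups came from the genotype and treatment labels, and nothing says more of the replicates than that each is a mouse.

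Counts were analysed here with edgeR 4.0.16 in R 4.3.3: filterByExpr with a minimum count of 10, TMM factors, 1 coefficient per group over all 15 mice, robust quasi-likelihood dispersions, two-sided tests and Benjamini-Hochberg adjustment over the 19536 genes. The 7 comparisons were: the genotype under each treatment, DHA in each genotype, the interaction, and each factor averaged over the other. Calls used an unadjusted p under 0.01. The script was tested on simulated data. Named genes were the 9 members, the listed genes called in any comparison, the lowest p of each list, and the 5 nearest App. Members and lists were chosen with earlier results of these data known. Alternatives were DESeq2 1.42.0, limma-voom (limma 3.58.1), other scalings and filters, a replicate block, fits of the compared groups alone and leaving out each mouse. Fits with choroid plexus markers as a covariate and levels with principal transcript lengths were chosen after seeing the data.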

Additional observations from a re-analysis of the deposited data

How the results depend on the processing

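The calls of App at an unadjusted p under 0.01 between the genotypes held in every alternative run, 25 under vehicle, 25 under DHA and 24 over both treatments. Its log2 fold change ranged from 0.40 to 0.53 under vehicle, 0.56 to 0.71 under DHA and 0.51 to 0.59 over both. Its adjusted p ranged from 0.000112 to 0.32, from 1.25e-07 to 0.764 and from 3.01e-14 to 0.0119. Under DHA it was over 0.05 in 15 of 25, namely with the replicate block (0.0549), the compared groups alone, the choroid plexus covariate, and without any 1 of the 8 WT mice, of Tg2576 vehicle replicates 2 and 3 or of Tg2576 DHA replicates 2 and 3 (up to 0.764). The number of the 9 genes called under vehicle, 1, became 2 with DESeq2, 2 with limma-voom (Aplp2 added in both), 3 with no filter and 3 with the replicate block (Bace1 and Adam10 added in both), and 1 to 4 on leaving out 1 mouse. Of the latter, 4 were called without Tg2576 vehicle replicate 2 (Aplp2, Bace1, Adam10), 3 without WT vehicle replicate 3 (Bace1, Adam10) and 2 without Tg2576 vehicle replicate 1 (Bace1). In the interaction 1 gene, Adam10, was called with no filter and 0 to 1 on leaving out a mouse, and for DHA in Tg2576 mice 0 to 1, Adam10, without Tg2576 vehicle replicate 2. The replicate block changed no other call of the 9 genes. Deviations from the group mean correlated from -0.244 to 0.213 between same-numbered mice (4 of 21 pairs over 0.1). Between mice of different numbers they correlated from -0.235 to 0.23 (12 of 63 over 0.1). These correlations gave no sign of pairing by number but cannot exclude a shared litter or cage, and the labels do not say what a number marks. Of 1376 alternative values of the 8 other genes, 16 passed the threshold and 61 changed sign, all of these uncalled. Depth left at least 306 counts for each of the 9 genes in each mouse.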
